A study of Mus musculus with 35 samples.

Results

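The comparison set 15 liver arrays from mice that had breathed styrene at 1, 5 or 10 ppm, as a pool, against 5 arrays from mice that had breathed air. Arrays were assigned by the concentration in their labels, which gave 20 of the 35 arrays of the series. It asks whether the 3 lowest concentrations moved liver transcripts at all, by how much, and whether they did so alike. The mice were adult male C57Bl/6 wild-type animals, exposed singly for 6 hours and killed the next morning. The groups of air, 1, 5 and 10 ppm held 5 biological replicates each, 1 array per replicate. The labels name no difference between the 4 groups other than styrene. Numbers in the sample titles, whose meaning is not given, rise with the concentration, from 1 to 8 in air up to 26 to 30 at 10 ppm. An effect of that order therefore cannot be told apart from one of styrene. Whole liver was used, so a change in the mix of cells and a change of RNA per cell cannot be told apart in any value below.

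Styrene, breathed here as a vapour, is the compound from which polystyrene is made. In liver and lung, cytochrome P450 enzymes such as CYP2E1 and CYP2F2 oxidise it to styrene oxide, a reactive epoxide. Epoxide hydrolases and glutathione transferases then convert the epoxide to products that are excreted, and hepatocytes around the central vein carry out much of this work.

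Expression was read on Affymetrix 3' arrays, in which a set of short probes (a probe set) reads a transcript near its 3' end. The deposited values were taken as log2 from their range, a scale where a difference of 1 means a 2-fold change. Levels of the 12 hepatocyte markers measured, among them Alb, Ttr and Apoa1, lay at or above the 95th percentile of all genes. Pairs of the 20 arrays correlated at 0.971 to 0.995 over all probe sets. The array of 5 ppm replicate 1 and that of 10 ppm replicate 2 stood apart from the others on the first principal component, which held 28.4% of the variance, with scores of -73.6 and -48.9, followed by 1 ppm replicate 4 at -30.7. The main counts are therefore also given without these 2 arrays, a choice made after the data were seen.

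The pooled low concentrations differed from air in few probe sets, and nearly all of these were higher. Of 45037 probe sets tested, 47 (0.104%) passed at an adjusted p under 0.05 in limma's moderated test with Benjamini-Hochberg adjustment. The styrene arrays were higher in 45 (0.0999%) and lower in 2 (0.00444%). At an unadjusted p under 0.05, 3221 probe sets (7.15%) differed, of which 1952 (4.33%) were higher and 1269 (2.82%) lower. Each of the 47 differed by at least 1.2-fold and 24 by at least 1.5-fold.

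Over all probe sets the pooled difference was small, with a median of 0.0044 and a range from -0.171 at the 5th to 0.216 at the 95th percentile. A difference of 1.2-fold or more in either direction was seen in 1939 probe sets (4.31%) and of 1.5-fold or more in 90 (0.2%). The 95% interval of a probe set's pooled difference, before adjustment, reached a median of 0.191 to either side. A call after adjustment needed a larger difference than that in a typical probe set, and the smallest called rise was 0.32. The few calls thus do not show that smaller changes were absent. The number called depended on the fit and on single arrays. It was 4 in a pool without 5 ppm, 77 in one without 10 ppm, 12 when only the 20 arrays were fitted and 3 in a fit of 15 against 5 arrays as 2 groups, and in 3 of these 4 fits, all but the pool without 10 ppm, no lower call was left. Leaving out arrays, it was 15 without air replicate 3, 13 without air replicate 4, 26 without air replicate 5, 26 without 5 ppm replicate 3, 71 without 10 ppm replicate 2, 90 without 5 ppm replicate 5, 104 without 5 ppm replicate 1, and 250, including all 47, without both arrays that stood apart.

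The 47 probe sets were mostly ones that carry no gene symbol in the platform annotation. Of the 45 that were higher, 32 had none and 13 had 1 symbol, although only 34.6% of all tested probe sets lacked a symbol. Among probe sets without a symbol 0.205% were called, and among those with 1 symbol 0.0519%. Their pooled differences ran from 0.32 to 0.93 with a median of 0.60, a fold of 1.25 to 1.90. Their mean levels lay between 3.49 and 9.07 with a median of 5.14, against 3.52 for all probe sets.

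The call with the smallest p belonged to probe set 1440163_PM_at, which has no symbol here. Its values in air were 3.93, 3.64, 4.1, 3.61 and 3.87, and in the 15 low styrene arrays the lowest was 4.25, the median 4.61 and the highest 4.97. Every styrene array lay above every air array. The difference was 0.76 ± 0.10 (SE; adjusted p = 0.000461, limma).

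Probe sets 1438895_PM_at and 1441992_PM_at, also without a symbol, were higher by 0.89 ± 0.14 (adjusted p = 0.00438, limma) and 0.79 ± 0.13 (adjusted p = 0.00481). For 1438895_PM_at the air values were 5.68, 5.11, 5.21, 4.87 and 5.56 and the styrene values ran from 5.47 over a median of 6.18 to 6.62, so that 14 of 15 styrene arrays lay above all air arrays. For 1441992_PM_at the air values were 3.6, 3.34, 3.41, 3.64 and 3.39 and the styrene values ran from 3.87 over 4.29 to 4.68, with no overlap. Of the 47 called probe sets these 3 alone, singled out after their values were seen, passed in all 33 alternative fits, and the other 44 lost the call in at least 1.

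A total of 14 genes had a called probe set, and in 7 of them it was the gene's brightest, which stands for the gene from here on. The brightest was taken by the mean over all 35 arrays, which include the styrene arrays. For Lpp the called probe set was the brightest by that mean but not in air, as given below. Over the 17097 genes, these 7 made up 0.0409%, and 1042 (6.09%) had an unadjusted p under 0.05, 422 higher and 620 lower. The genes that rose were Ccnt2, Lpp, Tra2b, Mfsd14a and Dr1. Those that fell were Gstm5 and Sftpc.

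Ccnt2 (probe set 1453399_PM_at) encodes cyclin T2, a partner of CDK9 in the kinase that releases paused RNA polymerase II. Its values were 6.51, 6.38, 6.34, 6.06 and 6.49 in air, and in the styrene arrays 6.45 at the lowest, 6.85 at the median and 7.18 at the highest. Only 1 styrene array, 10 ppm replicate 2 at 6.45, lay within the range of air. The pooled difference was 0.53 ± 0.11 (SE; adjusted p = 0.0377, limma), with 0.51, 0.55 and 0.52 at 1, 5 and 10 ppm. The call held in 10 of the 20 fits that left out 1 array, and was lost without air replicate 2, 3, 4 or 5, 1 ppm replicate 2, 5 ppm replicate 2 or 3, or 10 ppm replicate 1, 3 or 5, with differences of 0.45 to 0.56 and adjusted p of 0.0519 to 0.226 (limma).

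Dr1 (1416018_PM_at) encodes a subunit of negative cofactor 2, which binds the TATA-binding protein and restrains transcription. In air it stood at 6.29, 6.45, 6.31, 6.09 and 6.23, and in the styrene arrays at 6.34 to 6.96 with a median of 6.68. Of the 15 styrene arrays, 13 lay above all 5 air arrays. Dr1 was higher by 0.36 ± 0.07 (adjusted p = 0.0349, limma), with 0.24, 0.49 and 0.35 at 1, 5 and 10 ppm. Its second probe set differed by 0.30 ± 0.11, which did not pass (adjusted p = 0.426, limma). The call was lost without air replicate 1, 3, 4 or 5, 1 ppm replicate 1 or 4, 5 ppm replicate 3 or 10 ppm replicate 5, with differences of 0.32 to 0.37 and adjusted p of 0.0513 to 0.211.

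Tra2b (1441466_PM_at) encodes a splicing regulator of the SR-related family. The gene had no other probe set with 1 symbol. At means of 3.88 in air and 4.23 over all 35 arrays it was dim, though above the median of 3.52 for all probe sets. In air its values were 3.67, 3.91, 4.14, 3.99 and 3.68. The 1 ppm arrays had 4.09, 3.93, 4.09, 4.28 and 4.31, the 5 ppm arrays 4.66, 4.43, 4.3, 4.55 and 4.49, and the 10 ppm arrays 4.23, 4.23, 4.2, 4.45 and 4.48. All arrays of 5 and 10 ppm lay above the air arrays, while those of 1 ppm overlapped them. The pooled difference was 0.44 ± 0.08 (adjusted p = 0.0156, limma). Without air replicate 1 it was 0.38 (adjusted p = 0.0705) and without air replicate 5 it was 0.39 (adjusted p = 0.0901), and no other array ended the call when left out.

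Lpp (1436714_PM_at) encodes a LIM-domain protein of focal adhesions. In air it stood at 8.19, 7.63, 7.86, 8 and 8.47, and in the styrene arrays it ran from 8.19 over a median of 8.48 to 8.79. The ranges overlapped, and 8 of 15 styrene arrays lay above all air arrays. Lpp rose by 0.46 ± 0.09 (adjusted p = 0.0308, limma), and the call was lost without air replicate 2 (0.36, adjusted p = 0.18), 3 (0.42, 0.16) or 4 (0.45, 0.143), or without 5 ppm replicate 3 (0.44, 0.0505). Of its other 6 probe sets none passed. Those at 8.15 and 8.19 in air, brighter there than the called one at 8.03, differed by 0.13 ± 0.11 and 0.02 ± 0.14. In the low styrene arrays the called one was the brightest of the 3, with means of 8.49, 8.29 and 8.21. The dimmer probe sets, at means of 6.82, 5.24, 4.28 and 4.18 in air, differed by -0.02 ± 0.20, 0.21 ± 0.08, 0.40 ± 0.15 and 0.42 ± 0.20.

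Mfsd14a (1423195_PM_at) encodes a membrane protein of the major facilitator transporter superfamily. Air values were 6.77, 7.24, 7.08, 6.95 and 6.88, and styrene values ran from 7.02 over a median of 7.4 to 7.58. Of the styrene arrays, 12 of 15 lay above all air arrays, and the 5 arrays of 1 ppm (7.37 to 7.58) all did. The pooled difference was 0.40 ± 0.08 (adjusted p = 0.0424, limma). The other probe set of the gene differed by 0.21 ± 0.07, which did not pass (adjusted p = 0.287). The call held in 8 of the 20 fits that left out 1 array; it was lost without any air array but replicate 2, and without 1 ppm replicate 1, 2 or 5, 5 ppm replicate 2, 3 or 4 or 10 ppm replicate 3 or 5, with differences of 0.35 to 0.42 and adjusted p of 0.0537 to 0.178.

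Gstm5 (1416842_PM_at), a mu-class glutathione transferase, was lower in every styrene array than in any air array, by a narrow margin between 7.52 and 7.53. Its values were 7.67, 7.53, 7.76, 7.62 and 7.8 in air, and 7.06, 7.32 and 7.52 at the lowest, median and highest styrene array. Gstm5 fell by 0.36 ± 0.07 (SE, log2; adjusted p = 0.0308, limma). The difference was -0.39, -0.38 and -0.32 at 1, 5 and 10 ppm. The call was lost without air replicate 1 (-0.37, adjusted p = 0.0598), 3 (-0.34, 0.135), 4 (-0.38, 0.0846) or 5 (-0.33, 0.111).

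**Figure D1:**
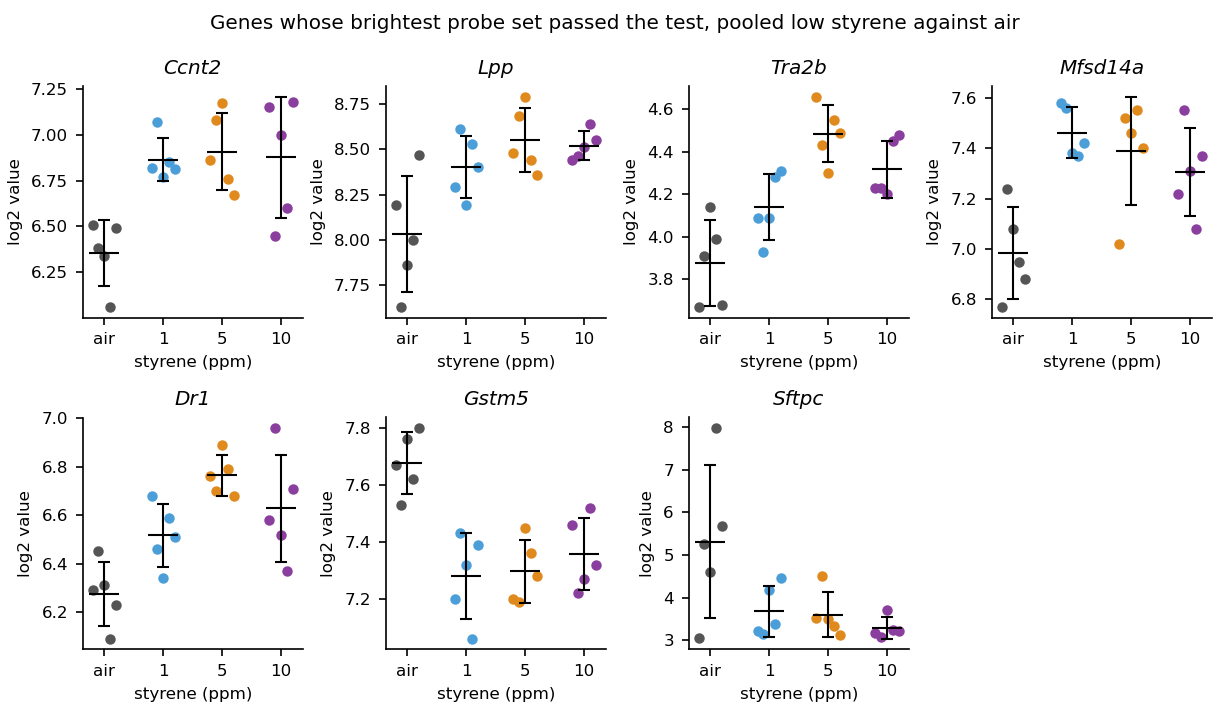
Log2 value (y axis, a scale per panel) of the 7 genes whose brightest probe set passed, by group (x axis, styrene in ppm); each point is 1 array, and the black mark and bar are the mean and SD of 5 arrays. Gstm5 has no styrene array above 7.52 and no air array below 7.53, while air arrays of Sftpc spread from 3.06 to 7.98.

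Sftpc (1418639_PM_at), surfactant protein C of lung alveolar cells, was the other gene that fell, and it is not a gene of liver cells. Air values were 3.06, 5.27, 4.6, 7.98 and 5.68, and styrene values ran from 3.09 over a median of 3.35 to 4.5. The groups overlapped because air replicate 1 had the lowest value of all 20 arrays, while the other 4 air arrays lay above every styrene array. The pooled difference of Sftpc was -1.8 ± 0.37 (SE; adjusted p = 0.0341, limma). Without air replicate 4 it was -1.13 ± 0.29 (adjusted p = 0.21), and the call was also lost without air replicate 2, 3 or 5, 1 ppm replicate 1 or 2, 5 ppm replicate 3 or 10 ppm replicate 5, with differences of -1.97 to -1.71.

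Scgb1a1, the secretory protein of airway club cells, had 4.81, 6.82, 5.06, 9.34 and 6.89 in air and ran from 3.12 over 4.18 to 6.83 in the styrene arrays, a difference of -2.08 ± 0.47 that did not pass (adjusted p = 0.0631, limma). Scgb3a2 and Sftpa1 differed by -0.51 ± 0.19 (adjusted p = 0.451) and -0.39 ± 0.13 (adjusted p = 0.35). In both, air replicate 4 was the highest array, at 5.47 and 4.25. Without that array Scgb1a1 differed by -1.39 (adjusted p = 0.391), Scgb3a2 by -0.08 (0.991) and Sftpa1 by -0.24 (0.847).

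The mean of these 4 lung markers was 3.61 to 6.76 in air and 3.24 to 4.47 in the styrene arrays. The remaining measured marker of that list, Cyp2f2, is also a hepatocyte gene and differed by 0.02 ± 0.05. Whether lung RNA was present in any array, and what part it had in any other difference, was not tested. Without air replicate 4, the array with the highest mean, 13 probe sets passed in place of 47, and 12 of these were among the 47. The count also fell without air replicate 3 or air replicate 5, as given above, and their lung means were 4.09 and 4.90. The fall in the count is thus not particular to the array with the highest lung mean.

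The other 7 genes with a called probe set, named after their values were seen, were Tmem19, Rbm6, Birc6, Snrnp48, Ppp6r3, Jmjd1c and Cep350. In each, a dimmer probe set rose while the brightest, which differed by 0 to 0.25, did not pass. The called probe set of Rbm6, an RNA-binding protein gene, stood at 4.99, 4.84, 5.09, 5.16 and 5.03 in air and at 5.18, 5.53 and 5.98 at the lowest, median and highest styrene array. It was higher in 15 of 15 styrene arrays than in any air array, by 0.56 ± 0.09 (adjusted p = 0.00495, limma). The brightest probe set of Rbm6 differed by 0.02 ± 0.11.

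The called probe set of Tmem19, a transmembrane protein gene, rose by 0.69 ± 0.11 (adjusted p = 0.00481, limma) while its brightest differed by 0.04 ± 0.10. That of Birc6, a giant inhibitor-of-apoptosis protein with ubiquitin ligase activity, rose by 0.45 ± 0.08 (adjusted p = 0.00829) with no overlap of the groups, and its brightest differed by 0.11 ± 0.11. Probe sets of Ppp6r3, a regulatory subunit of protein phosphatase 6, and of the centrosomal gene Cep350 rose by 0.66 ± 0.13 and 0.62 ± 0.13.

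Snrnp48, a protein of the minor spliceosome, had a called probe set at 0.48 ± 0.10 (adjusted p = 0.0315, limma). Its brightest probe set stood at 0.25 ± 0.13 and did not pass. Jmjd1c, of the Jumonji family of histone demethylases, had 2 called probe sets at 0.67 ± 0.14 and 0.41 ± 0.08 (adjusted p = 0.0338 for both), against 0 ± 0.24 for its brightest. Over the 14 genes, 29 further probe sets were measured, and 8 of them had an unadjusted p under 0.05 (limma), against 7.15% of all probe sets. The genes were chosen because another of their probe sets passed on these same arrays, so the 8 are no independent evidence.

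Falls that came nearest to passing were in genes of varied roles. Blvra, which encodes the biliverdin reductase that makes bilirubin, stood at 7.27, 7.41, 7.36, 7.32 and 7.38 in air and ran from 6.62 over 7.02 to 7.29 in styrene. Only 1 styrene array, 1 ppm replicate 3 at 7.29, was not below all air arrays, and the difference of -0.33 ± 0.07 missed the threshold (adjusted p = 0.0539, limma). Pparg, the nuclear receptor that drives fat storage, differed by -0.55 ± 0.13 (adjusted p = 0.0705) at a low level of 4.23 to 4.75 in air.

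Cmss1, Plac8 and Zswim7 differed by -0.52 ± 0.12, -0.56 ± 0.13 and -0.35 ± 0.08 (adjusted p = 0.0631, 0.0631 and 0.0703, limma). Cops5, the catalytic subunit of the COP9 signalosome, was below all air arrays in 15 of 15 styrene arrays, with -0.29 ± 0.09, and did not pass (adjusted p = 0.229). Its air values were 9.12, 9.10, 9.15, 9.17 and 9.27, and its styrene values ran from 8.29 over 8.92 to 9.07. In all, 20 probe sets (0.0444%) had every styrene array above every air array, 11 of them called, and 5 (0.0111%) had every styrene array below, 1 of them called.

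None of the 17 measured members of the list of styrene metabolism passed the test. The list does not hold Gstm5, the glutathione transferase that fell. Of its members 1 had an unadjusted p under 0.05, against 6.09% of all genes. Their median difference was -0.026, against -0.011 for all genes. Cyp2e1 and Cyp2f2, which oxidise styrene, differed by 0.01 ± 0.04 and 0.02 ± 0.05, with levels of 13.33 ± 0.04 and 12.99 ± 0.07 (SD, n = 5) in air. Cyp1a2 differed by 0.01 ± 0.08.

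The smallest p of the list belonged to Ephx1, which encodes microsomal epoxide hydrolase. Its values were 11.56, 11.88, 11.89, 11.66 and 11.75 in air, and 11, 11.5 and 12.04 at the lowest, median and highest styrene array, with overlap. It differed by -0.24 ± 0.11 (unadjusted p = 0.0413, adjusted p = 0.67, limma), and by -0.45, -0.18 and -0.08 at 1, 5 and 10 ppm. The soluble hydrolase Ephx2 differed by -0.06 ± 0.06.

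The glutathione transferases Gstm1, Gstp1, Gstt1 and Mgst1 differed by -0.12 ± 0.08, 0 ± 0.05, 0.01 ± 0.09 and 0.01 ± 0.04. The dehydrogenases of the later steps, Adh1, Adh4, Aldh1a1, Aldh2 and Aldh3a2, lay between -0.25 (Adh4, SE 0.15) and 0.07 (Aldh1a1, SE 0.06). Among the conjugating enzymes, Glyat, which joins acids to glycine, differed by -0.17 ± 0.12 and the N-acetyltransferase Nat2 by -0.03 ± 0.13. Cyp2b10, the P450 most readily raised through the receptor CAR, varied most: 4.62 to 7.68 in air and 4.22 to 8.48 in the styrene arrays, a pooled difference of -0.03 ± 0.44.

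Cyp2b10 had means of 6.87 ± 1.1, 6.35 ± 0.59 and 5.23 ± 1.09 (SD, n = 5) at 1, 5 and 10 ppm. The difference of -1.63 between 10 and 1 ppm had a 95% interval from -2.72 to -0.55 before adjustment and did not pass (adjusted p = 0.994, limma). None of the 19 measured targets of CAR and PXR passed, nor did any of the 9 targets of the aryl hydrocarbon receptor. Their medians were -0.005 and 0.007.

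Across 46 gene lists with 678 measured genes, 44 held no called member, and the medians of 41 lay within 0.1 of 0. For comparison, 0.0409% of all genes were called. The splicing factors held 1 called riser of 23 (Tra2b), and the lung list 1 called fall of 5 (Sftpc). Among splicing factors Rbm39 and Luc7l2 differed by 0.39 ± 0.12 and 0.45 ± 0.17 and did not pass (adjusted p = 0.292 and 0.443, limma), and the list's median was 0.089.

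The lists with the highest medians were the PER arm of the circadian clock (0.261, 11 of 14 above 0), ER chaperones and ER stress (0.162, 20 of 22) and cytosolic heat shock chaperones (0.151, 17 of 19). None of their members passed. Per2, a repressor of the clock, differed by 0.50 ± 0.18 (adjusted p = 0.434, limma), Per1 by 0.34 ± 0.24 and Per3 by 0.46 ± 0.32. The ER chaperone Hspa5 differed by 0.27 ± 0.16 and its cofactor Dnajc3 by 0.29 ± 0.13.

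Hsph1, a cytosolic chaperone of the HSP110 family, differed by 0.45 ± 0.22 and the heat shock factor Hsf2 by 0.24 ± 0.09, neither past the threshold (adjusted p = 0.687 and 0.454, limma). Members of a list were read on the same 20 arrays, so the number above 0 is no count of independent observations. At 1, 5 and 10 ppm the PER arm had medians of 0.150, 0.288 and 0.218, the ER list 0.140, 0.112 and 0.228, and the heat shock list 0.107, 0.153 and 0.220, all against the same air arrays.

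The lists with the lowest medians, apart from lung, were NRF2 targets (-0.109, 2 of 28 above 0) and Kupffer cell markers (-0.099, 1 of 13), against 7745 of 17097 genes above 0. No member of either list passed. At 1, 5 and 10 ppm the medians were -0.163, -0.066 and -0.048 for NRF2 targets and -0.129, -0.186 and 0.013 for Kupffer cells, the latter with the opposite sign at 10 ppm. Hmox1, heme oxygenase, differed by -0.50 ± 0.21 and Gsta4 by -0.30 ± 0.12 (adjusted p = 0.542 and 0.505, limma). In other lists the smallest p values belonged to Vegfa (0.33 ± 0.08, adjusted p = 0.0673), the proteasome subunit Psma5 (-0.25 ± 0.07, 0.161) and Apob (0.41 ± 0.12, 0.204).

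**Figure D2:**
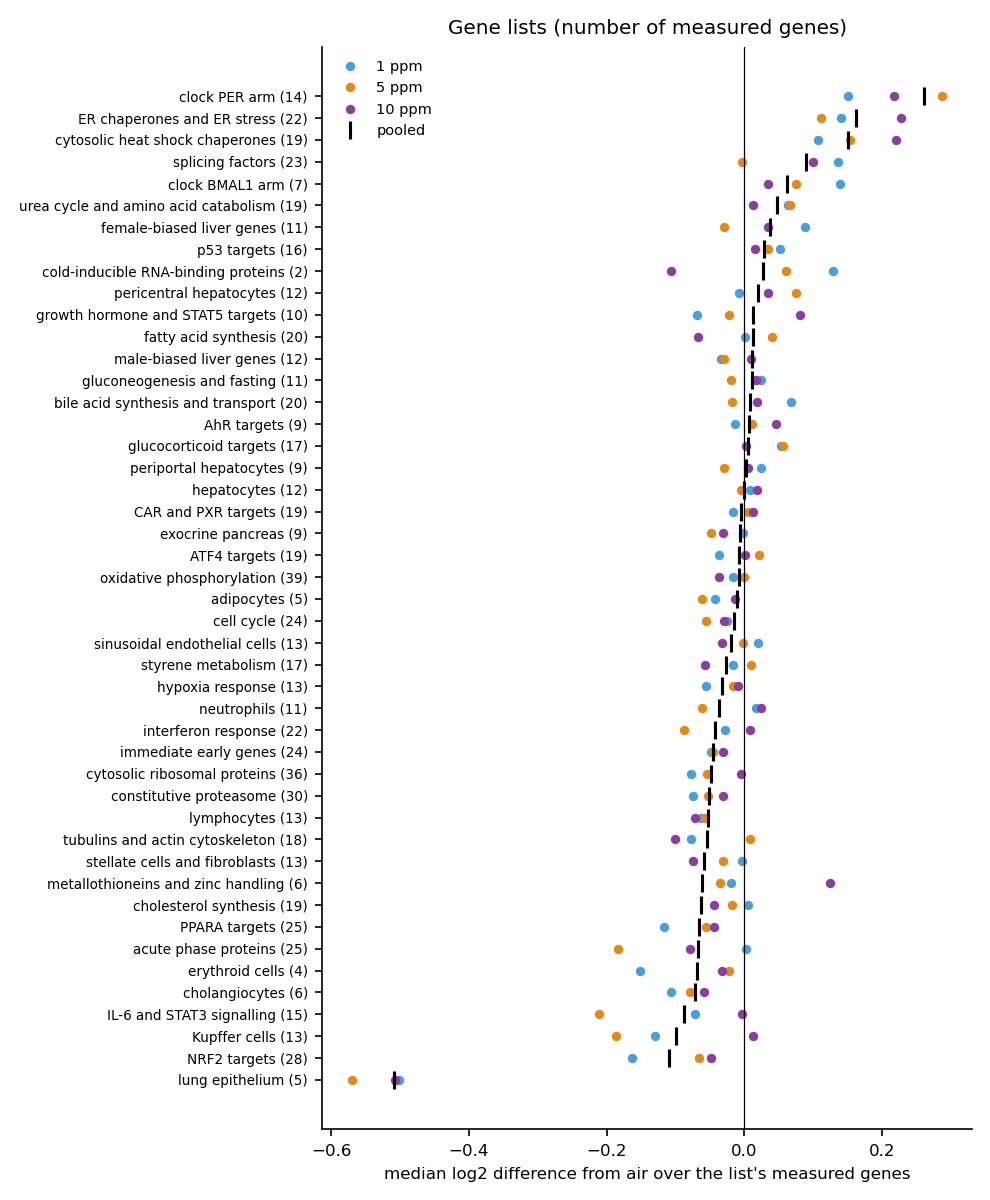
Median log2 difference from air (x axis) over the measured genes of each of 46 lists (y axis, number of genes in parentheses), for 1, 5 and 10 ppm (coloured points) and the pool (black bars). The lung list stands at -0.509 and the clock PER arm at 0.261, and 41 pooled medians lie within 0.1 of 0.

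Probe sets without a gene symbol shifted upward as a class at middle levels, and those with a symbol did not. All probe sets were ranked by mean level and divided into 5 equal bands. In the fourth band, at levels of 4.06 to 6.34, the 2387 probe sets without a symbol had a median difference of 0.069, and 67.2% were above 0. At an unadjusted p under 0.05, 18.2% of them were higher and 1.8% lower, and 25 were called. In the same band the 6452 probe sets with 1 symbol had a median of -0.001, with 4.53% higher and 3.77% lower.

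The median of the unnamed probe sets in this band was 0.068, 0.089 and 0.063 at 1, 5 and 10 ppm. In the brightest band it was -0.004 in the pool. Within each array, the median of the unnamed probe sets of this band minus that of the named ones was -0.338 to -0.26 in air and -0.266 to -0.0862 in the styrene arrays. Only 10 ppm replicate 1 (-0.266) lay within the range of air. The band was chosen after its values were seen, so no test is given.

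**Figure D3:**
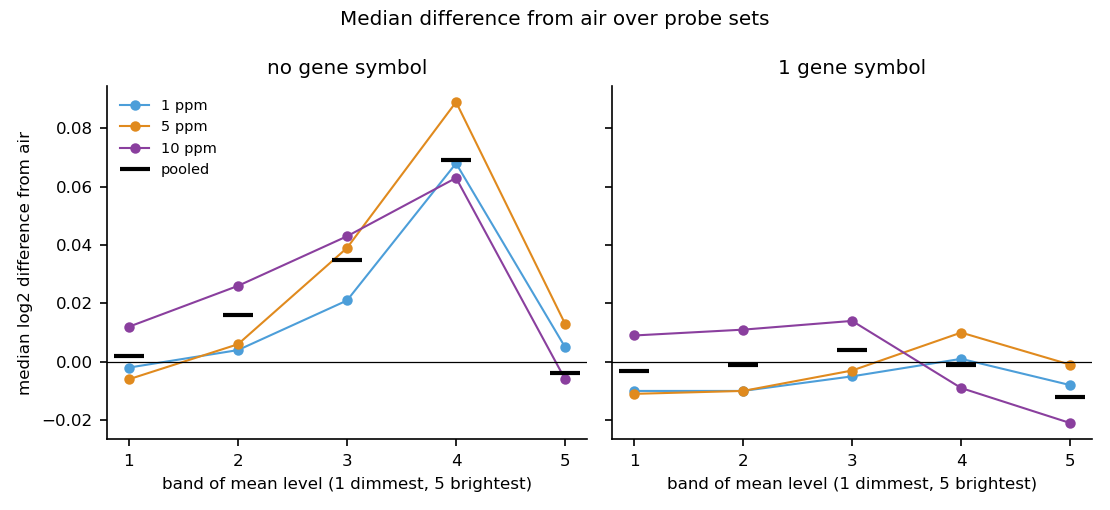
Median log2 difference from air (y axis) of probe sets without a symbol (left) and with 1 symbol (right), by band of mean level (x axis), for 1, 5 and 10 ppm (coloured lines) and the pool (black marks). The pooled median of unnamed probe sets peaks at 0.069 in the fourth band, and that of named probe sets stays between -0.012 and 0.004.

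Means of whole-array measures differed little between air and the pooled styrene arrays, with 1 exception among 7. The third principal component of the 20 arrays, with 6.47% of the variance, was 16.8 ± 7.34 (SD, n = 5) in air and -5.59 ± 8.11 (SD, n = 15) in the styrene arrays (two-sided exact permutation test, p = 0.000193, adjusted p = 0.00135 over 7 measures). Air replicate 1, at 5.03, was the only air array within the range of styrene, whose highest value was 7.4. The means at 1, 5 and 10 ppm were 0.321, -11.1 and -5.97. The permutation test compares means, and differences in spread were not tested. On the first component the SD was 12.5 in air and 22.9, 39.4 and 30.1 at 1, 5 and 10 ppm (n = 5 each).

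Actin probe sets near the 3' end exceeded those near the 5' end, a gap that widens as RNA degrades, by 0.478 ± 0.0475 in air (SD, n = 5) and 0.545 ± 0.0602 in styrene (SD, n = 15), which did not pass (exact permutation p = 0.0388, adjusted p = 0.136). The array median was 0.0154 higher in the styrene arrays (exact permutation p = 0.158, adjusted p = 0.368). The same difference for Gapdh, the interquartile range and the first 2 components had adjusted p of 0.738 to 0.755 by the same test. The part of actin integrity in the called probe sets was not tested.

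**Figure D4:**
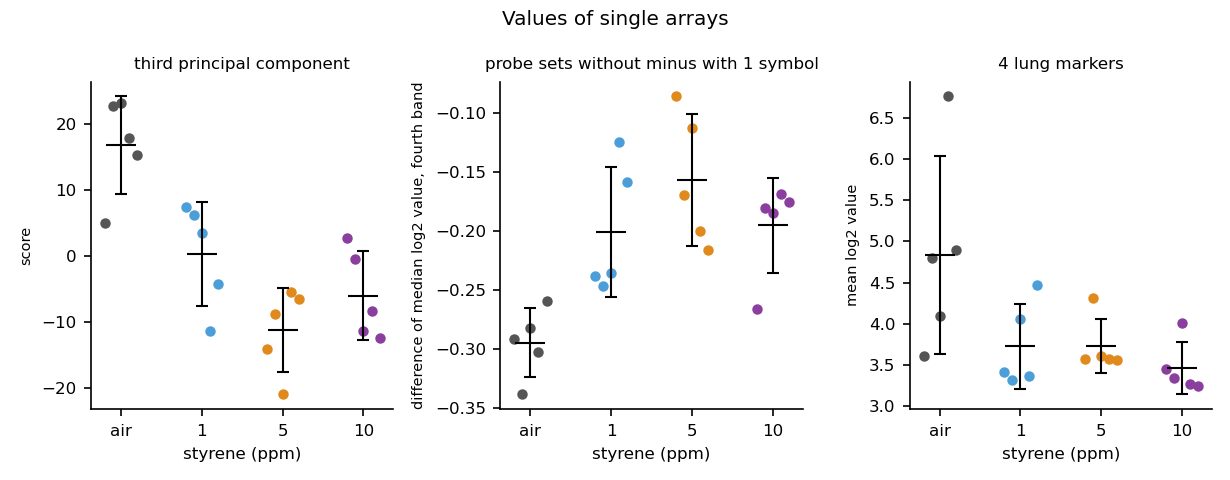
Score on the third principal component (left), median of unnamed minus named probe sets in the fourth band of level (middle) and mean of 4 lung markers (right), by group (x axis, styrene in ppm); points are arrays and black marks the mean and SD of 5. Air is highest on the component at 16.8 on average, and its unnamed minus named values end at -0.26.

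Taken against the same 5 air arrays, the 3 concentrations gave different counts. Calls numbered 2 at 1 ppm (0.00444%) and 69 at 5 ppm (0.153%), of which 66 were higher and 3 lower. There were 0 calls at 10 ppm (0%). The 3 comparisons had 2534 (5.63%), 3189 (7.08%) and 2871 (6.37%) at an unadjusted p under 0.05. The smallest adjusted p at 10 ppm was 0.0714 (limma). The median difference over all probe sets was -0.0003, 0.0039 and 0.0087. Without the 2 arrays that stood apart, 5 ppm had 154 calls and 10 ppm had 5.

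These counts moved with single arrays. The 5 ppm count was 43 without air replicate 2, 29 without air replicate 3, 30 without air replicate 4, 42 without air replicate 5, and 114, 30, 22 and 120 without 5 ppm replicates 1, 2, 3 and 5. The 1 ppm count was 6 without air replicate 2, 0 without air replicate 4 or 1 ppm replicate 2 or 4, and 1 without air replicate 1, 3 or 5 or 1 ppm replicate 1 or 5. The 10 ppm count was 2 without air replicate 1 or 10 ppm replicate 2 and 1 without 5 ppm replicate 1.

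No difference between the concentrations themselves passed. The F test among 1, 5 and 10 ppm called 0 probe sets, with 1958 (4.35%) at an unadjusted p under 0.05 and a smallest adjusted p of 0.998 (limma). The pairs 5 against 1, 10 against 5 and 10 against 1 ppm also called 0 each, with 2163 (4.8%), 1882 (4.18%) and 2070 (4.6%) unadjusted. The 95% interval of a pair's difference, before adjustment, reached a median of 0.234 to either side. A call after adjustment needed a larger difference than that in a typical probe set. The absence of calls thus does not show that the concentrations were alike. Without 10 ppm replicate 3, 1 probe set differed between 10 and 5 ppm.

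The 45 called probe sets that were higher with styrene stood highest at 5 ppm. Their median difference from air at 1, 5 and 10 ppm was 0.52, 0.73 and 0.53, and at 20, 40 and 120 ppm it was 0.34, 0.51 and 0.56, all against the same air arrays. At those 3 higher concentrations 7, 35 and 33 of the 45 passed (1.03%, 14.6% and 19.4% of all probe sets). The 45 were chosen for lying above these same air arrays, which raises all 6 medians and these counts, so the values only describe them and nothing is read from the shares. In single arrays, their median above the mean of air ran from -0.08 to 0.09 in the air group, from 0.43 to 0.58 in the 1 ppm group, from 0.49 to 0.92 in the 5 ppm group and from 0.35 to 0.63 in the 10 ppm group. The highest arrays were 5 ppm replicates 2 and 3, at 0.85 and 0.92, and the other 3 of that group lay between 0.49 and 0.62, within the range of the 1 and 10 ppm arrays.

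Compared directly, 39 of these 45 were above 0 at 5 against 1 ppm, with a median of 0.18. An unadjusted p under 0.05 (limma) was seen in 15 of them, against 4.8% of all probe sets. Between 10 and 1 ppm the median was -0.03 and 4 had such a p, against 4.6%. The 45 were read on the same arrays and chosen from a pool that holds these concentrations. These counts are therefore no independent observations and only describe the 45. The F test among the 3 concentrations had an unadjusted p under 0.05 in 16 of the 47 called probe sets (34%), against 4.35% of all probe sets, and passed in none. The choice of the 47 and this test use the same estimate of each probe set's spread, so the 2 shares are not like for like. The median of 5 minus 1 ppm was 0.15 to 0.26 when each array was left out in turn.

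Tra2b and Dr1 were among those that stood highest at 5 ppm, and neither difference passed after adjustment. Tra2b was 0.34 higher at 5 than at 1 ppm (95% interval 0.14 to 0.55, before adjustment) and Dr1 0.24 higher (0.06 to 0.43). For Ccnt2 the same difference was 0.04 (-0.23 to 0.32) and for Gstm5 0.01 (-0.17 to 0.20). The intervals of Ccnt2 and Gstm5 include 0 and reach to either side of it, which does not show that the concentrations act alike on them.

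**Figure D5:**
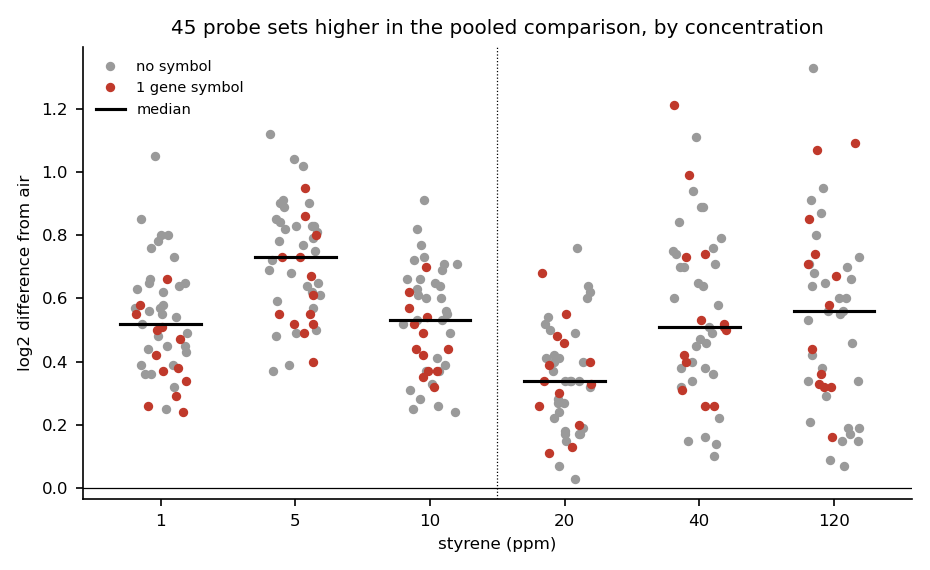
Log2 difference from air (y axis) of the 45 probe sets that were higher in the pooled comparison, by concentration (x axis, ppm), with probe sets of 1 gene symbol in red, those without in grey and the median as a black bar. The medians are 0.52, 0.73 and 0.53 at the 3 low concentrations, left of the dotted line, and 0.34, 0.51 and 0.56 at the others.

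The genes with the smallest F test p among the 3 concentrations were Galnt18, Dnajc6, Cdh23, Cgn, Pdcl3, Snrpd3, 9030625G05Rik, Axin2, Klrk1 and Ftcd, and each had an adjusted p of 0.998 (limma). Galnt18, of the enzymes that start O-linked glycan chains, averaged 3.77 ± 0.2, 3.26 ± 0.11 and 3.18 ± 0.24 at 1, 5 and 10 ppm (SD, n = 5), with 3.39 ± 0.19 in air. Its 1 ppm arrays, 3.56 to 4.03, all lay above those of 5 and 10 ppm, of which the highest was 3.35. Axin2, a Wnt target that limits Wnt signalling, was 4.09 ± 0.17, 4.67 ± 0.12 and 4.5 ± 0.27 at 1, 5 and 10 ppm.

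Apart from Snrpd3 (-0.19 ± 0.08), a core protein of splicing particles, and Axin2 (0.2 ± 0.11), these genes had pooled differences from air of -0.03 to 0.06. Ftcd, a liver enzyme of histidine breakdown, differed from air by 0.19, 0.18 and -0.18 at 1, 5 and 10 ppm. The auxilin gene Dnajc6 differed by -0.04, -0.30 and 0.26, and the tight junction gene Cgn by 0.22, 0.10 and -0.24. The orders of the concentrations thus varied from gene to gene, and none of these differences passed.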

How the data were processed

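The deposited table holds log2 values, per the range of 1.74 to 14.23 in the files, 1 per probe set and array; the base of the logarithm is not given in the sources used here. The authors used RMA and Partek, per the submitters' processing notes, with no version given, and no background correction or scaling was added. Scanner signals were not used here; the number of arrays limits the precision, and changes of dim probe sets can be understated.

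Of 45141 probe sets, 104 controls were left out. The platform annotation gave 1 symbol to 28898 (17097 genes), several to 551 and none to 15588. By gene identifier, 28689 of the symbols matched a RefSeq gene table and 0 changed.

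Cell means of the 7 groups were fitted to all 35 arrays with limma 3.58.1 in R 4.3.3, with 28 residual and 5.41 prior degrees of freedom, so that the groups share 1 estimate of the spread. The contrasts were the mean of 1, 5 and 10 ppm against air, each against air, each pair and an F test among the 3, each adjusted by Benjamini-Hochberg over all 45037 probe sets. SE are from the fit. Array measures were compared by two-sided exact permutation over 15504 divisions. The fit was tested on simulated data. Tables were read with data.table (version 1.17.8), and matplotlib 3.10.9 drew the figures.

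Named genes were called ones, up to 15 a direction, filled to 8 by smallest p where under 5 were called; the 10 smallest F test p; all of styrene metabolism; up to 4 of each other list; and 5 non-overlapping ones a direction. Genes named through a dimmer probe set, and probe sets without a symbol, were chosen after their values were seen. The members and the 46 lists were chosen with earlier results of these data known. Alternatives changed scaling, the low-level filter, the arrays fitted, the variance prior, array weights, covariates and single arrays or concentrations.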

Additional observations from a re-analysis of the deposited data

Results flagged for a closer look

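In 304 groups of 5 arrays, taken from the genes named and the array measures, 15 had an array farther from the rest than Dixon's 95% limit, which chance gives in about 1 group in 20. Lung markers held 5 of the 15: Sftpa1 (4.25) and Scgb3a2 (5.47) were high in air replicate 4, Sftpc (4.5) and Scgb1a1 (5.94) in 5 ppm replicate 2, and Sftpc (3.72) in 10 ppm replicate 3. Among called genes, Ccnt2 stood high in 1 ppm replicate 2 (7.07) and the dimmer called probe set of Jmjd1c in 5 ppm replicate 2 (4.43).

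Single high arrays were also Cgn in air replicate 2 (6.28) and Klrk1 in 10 ppm replicate 5 (3.68). Single low arrays were Snrpd3 (8.41) and Gstm1 (11.99) in 10 ppm replicate 1, Asns (6.5) and Cops5 (8.68) in 10 ppm replicate 2, Glyat in 1 ppm replicate 4 (10.27) and Arg1 in air replicate 3 (12.68). Asns, which makes asparagine, and the urea cycle enzyme Arg1 differed from air by -0.64 ± 0.30 and 0.12 ± 0.05 in the pooled comparison and did not pass (adjusted p = 0.648 and 0.634, limma).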

How the results depend on the processing

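None of the 47 called probe sets changed sign in any of 33 alternative fits, and 26 of the 247 named or called ones did, none of them called. The 47 were chosen for differences large against their spread, so a change of sign was unlikely from the start. Its absence is no added evidence for their direction. The number of calls moved with the fit. The pooled comparison had 47 calls, and 98 when only the brighter probe sets were tested, 12 when the 20 arrays were fitted alone, 230 with array weights, 78 with the place of the title number as a covariate, 3 in a 2-group fit, 77 without 10 ppm, 4 without 5 ppm, 24 with a fold of at least 1.5 and 250 without the 2 arrays that stood apart, a choice made after the data were seen. Centring, a second quantile normalization, an intensity-dependent prior and a pool without 1 ppm gave 35, 58, 39 and 49. Leaving out 1 array gave 13 to 104 calls. The title number used as a covariate was its rank within each group, so that fit could not adjust for the order of numbers between groups.

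At 10 ppm there were 4 calls after quantile normalization, 6 among brighter probe sets, 7 with array weights and 5 without the 2 arrays, and 0 to 2 with 1 array left out. At 1 ppm there were 0 in the fit of 20 arrays, 10 with array weights and 1 with that prior, and 0 to 6 with 1 array left out. At 5 ppm there were 30 in the fit of 20 arrays, 217 with array weights and 154 without the 2 arrays, and 22 to 120 with 1 array left out. The pair 10 against 5 ppm had 0 to 1, and the other pairs and the F test 0 in all of these.

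Deviations of same-numbered arrays correlated at a median of 0.0917 over 30 pairs, 14 of them above 0.1. For the 120 other pairs the median was -0.00836, and 36 were above 0.1. Of 20 arrays, 3 correlated best with their own number. These values do not settle whether the numbers pair the arrays, and the main fit left them unpaired. The replicate block gave 65 calls, 46 of them shared. The actin measure was 0.056 to 0.085 with 1 array left out and passed only without 1 ppm replicate 3 (0.0748, adjusted p = 0.0482, exact permutation test). Causes were not tested. The 5 air arrays enter every comparison with air, and dim probe sets may be understated.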
